A study of Mus musculus with 6 samples.

Results

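The genes described here mark V2a interneurons, V2b interneurons and cerebrospinal fluid contacting neurons, 3 neighbouring classes of the ventral spinal cord. They were taken by name and are Gata2, Gata3, Tal1, Pkd2l1, Sox14, Sox21, Vsx1 and Foxn4, 8 of the 56805 genes in the deposited count table. They were selected on class identity with the regional comparison of these libraries, its CPM values and calls, already known, so their own differences between regions are given as a description. The study sequenced motor neurons of mouse embryos at e12.5, with 3 libraries from the cervical and 3 from the thoracic spinal cord. All 6 libraries carry the genotype label control and received no treatment. Strain, promoter or reporter, the way the cells were collected and the number of embryos behind a library are not stated in the labels used here. The replicates are called biological, but what separates them is not stated, so the p-values rest on the spread among these libraries.

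V2 interneurons arise from the p2 progenitor domain, just dorsal to the motor neuron progenitors. Foxn4 promotes Notch ligand expression there, and Notch signalling between sister cells then divides the lineage into excitatory V2a cells and inhibitory V2b cells. V2a cells help drive locomotor circuits and express the SoxB2 repressors Sox14 and Sox21, whereas V2b cells depend on Gata2, Gata3 and the helix-loop-helix factor Tal1. Cerebrospinal fluid contacting neurons line the central canal, share Gata2, Gata3 and Tal1 with V2b cells, and carry the channel Pkd2l1, which responds to acid and to flow of the fluid.

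Library totals ran from 32103071 to 33790634 counts in 5 libraries and reached 53186131 in thoracic replicate 1. Levels are given as CPM, each gene's share of its library's counts, scaled by TMM, which corrects for differences in library composition. The labelled cell type was checked against the motor neuron genes Mnx1, Isl1 and Chat. Mnx1, a defining factor, stood at 82.5 ± 21.0 CPM per kilobase of exon in cervical and 74.0 ± 13.4 in thoracic libraries (SD, n = 3). Isl1 and Chat were lower, at 9.89 to 21.3 and 3.11 to 8.05 CPM per kilobase over all libraries. Per kilobase, every one of the 8 genes was lower than Mnx1 in every library. This did not hold for the other motor neuron genes: Sox21, at 10.3 to 14.5, lay above the range of Chat and within that of Isl1. Genes of other neurons were present too, with Gad1, which makes the transmitter GABA, at 21.8 ± 1.27 and 18.7 ± 2.09 CPM per kilobase. Gad1 was below Mnx1 and above Chat in every library. In such bulk samples, fewer cells of a type and less RNA per cell cannot be told apart.

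All 8 genes had higher values in the thoracic than in the cervical library at each of the 3 replicate numbers, an order found in 16.4% of all 21972 tested genes. The low-count filter, which asks for at least about 10 reads in 3 libraries, kept 6 of them and removed Vsx1 and Foxn4. Of the 6, Gata3 and Pkd2l1 were called higher in thoracic libraries at an adjusted p below 0.05 in edgeR's quasi-likelihood test. In that test 0.542% of all tested genes were called, and 0.350% were called higher in thoracic libraries. The 3 thoracic values lay above all 3 cervical values for Gata3, Pkd2l1 and Sox14 among the tested genes and for both removed genes, against 7.50% of all tested genes. The choice of genes used this contrast, and nothing further is read from these counts.

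**Figure D1:**
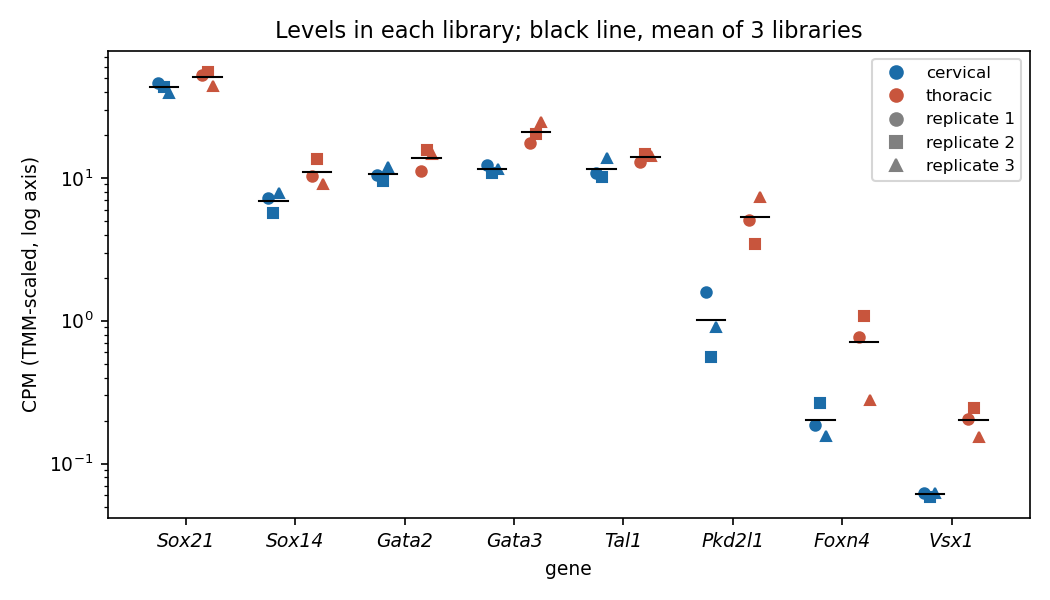
Level of each of the 8 genes in each library, in TMM-scaled CPM on a log axis; points are libraries (blue cervical, red thoracic, shape for the replicate number) and black lines are means of 3. The regions are apart for Sox14, Gata3, Pkd2l1, Foxn4 and Vsx1 and overlap for Sox21, Gata2 and Tal1.

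Compared per kilobase of exon, Sox21 was the most abundant, with a mean of 12.3 CPM per kilobase over the 6 libraries. Sox14 (4.33) and Gata3 (4.06) followed and overlapped with each other in both regions. Tal1 (2.91) overlapped with Gata3 in cervical libraries but lay below it in all thoracic ones, and Gata2 (2.26) lay below Tal1 in both regions. Pkd2l1 (0.894) lay below Gata2 in cervical libraries and overlapped with it in thoracic ones. Foxn4 (0.135) and Vsx1 (0.0347) were the lowest and stood apart from their neighbours in this order in both regions.

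Foxn4, the forkhead factor of p2 progenitors, was counted with 6, 9 and 5 reads in cervical replicates 1, 2 and 3 and with 41, 35 and 9 reads in the thoracic ones. The lowest thoracic level, 0.278 CPM in replicate 3, was close to the highest cervical level of 0.264 CPM in replicate 2. Pooled over libraries, the thoracic rate was 3.52 times the cervical one, with an exact 95% Poisson interval of 2.15 to 6.06. Without the low-count filter, edgeR gave it a log2 fold change of -1.79 and an adjusted p of 0.0739. Vsx1, a homeodomain factor of V2 precursors, had 2 reads in each cervical library and 11, 8 and 5 in the thoracic replicates. Its pooled ratio was 3.32, with an interval of 1.32 to 9.92, and without the filter its edgeR adjusted p was 0.869. These intervals cover counting error only and leave out the spread between libraries. They may be too narrow even for counting error, since the labels mention no molecular identifiers and reads amplified by PCR are not independent molecules.

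Sox14 and Sox21, the SoxB2 genes of V2a cells, differed in how far the regions lay apart. Sox14 stood at 7.22, 5.66 and 7.89 CPM in cervical replicates 1, 2 and 3 and at 10.2, 13.5 and 9.08 CPM in the thoracic ones. The regions did not overlap, but thoracic replicate 3 lay only a little above cervical replicate 3. The thoracic mean was 10.9 ± 2.31 CPM and the cervical mean 6.92 ± 1.14 CPM. This gave a log2 fold change, cervical minus thoracic, of -0.66 (SE 0.18, edgeR adjusted p = 0.217). DESeq2 called Sox14 (adjusted p = 0.0259), as did edgeR without the low-count filter (0.00489). Sox21, which progenitors outside the V2 domain also express, had 46.3, 43.5 and 39.0 CPM in cervical libraries 1, 2 and 3, and thoracic levels of 52.3, 55.1 and 44.1 CPM. Thoracic replicate 3 fell between the cervical values, and the log2 fold change was -0.23 (SE 0.10, edgeR adjusted p = 0.537). Sox21 shares 713 exonic bases with Gm4675 on the opposite strand, which had a mean of 52.3 counts against at least 1247 for Sox21.

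Gata2 and Gata3 encode zinc finger factors that bind GATA sequences, and Tal1 encodes a partner that joins them in larger complexes. Gata3 was the one of these genes called between regions. It lies on chromosome 2 from 9861889 to 9894845 (mm39, minus strand). Its level was 12.4, 10.7 and 11.5 CPM in cervical replicates 1, 2 and 3 and 17.5, 20.4 and 24.5 CPM in the thoracic ones. All thoracic values lay above all cervical values, and the spread was wider among the thoracic libraries. The thoracic mean of 20.8 ± 3.47 CPM was 1.80-fold the cervical mean of 11.5 ± 0.817 CPM. The log2 fold change was -0.85 with an SE of 0.13 (edgeR adjusted p = 0.0249). Left without cervical replicate 2 or 3, its edgeR adjusted p was 0.109 and 0.119, and without thoracic replicate 2 or 3 it was 0.0688 and 0.0809. It was still called without cervical replicate 1 (0.0233) and without thoracic replicate 1 (0.0150). Gata3 shares 155 exonic bases with Gm13256 on the opposite strand and 77 with 9230102O04Rik on its own strand, and these had means of 9.67 and 4.67 counts against at least 366 for Gata3.

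Gata2, which acts before Gata3 in V2b cells, had 10.4, 9.51 and 11.9 CPM in cervical libraries 1, 2 and 3, and thoracic levels of 11.2, 15.6 and 14.7 CPM. Thoracic replicate 1 fell between cervical replicates 1 and 3, so the regions overlapped (log2 fold change -0.38, SE 0.15, edgeR adjusted p = 0.492). Tal1 had 10.7, 10.2 and 13.8 CPM in cervical replicates 1, 2 and 3, and its thoracic levels were 12.9, 14.7 and 14.2 CPM. Cervical replicate 3 was above thoracic replicate 1, and the difference was the second smallest of the 6 tested genes (log2 fold change -0.27, SE 0.14, edgeR adjusted p = 0.684). Neither Gata2 nor Tal1 was called in any of the 13 alternative analyses.

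Ratios between genes in the same library do not depend on how libraries are scaled. They were chosen after the values were seen and carry no test. Gata3 counts per Gata2 count were 1.19, 1.13 and 0.963 in cervical replicates 1, 2 and 3 and 1.56, 1.30 and 1.67 in the thoracic ones. Per Tal1 count they were 1.15, 1.06 and 0.828 in cervical and 1.36, 1.39 and 1.72 in thoracic libraries. Both ratios were higher in every thoracic than in every cervical library, so the regional gap of Gata3 exceeded that of Gata2 and of Tal1 in these libraries. Tal1 per Gata2 was 1.09 ± 0.0687 in cervical and 1.02 ± 0.112 in thoracic libraries (SD, n = 3), with overlap between the regions.

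**Figure D2:**
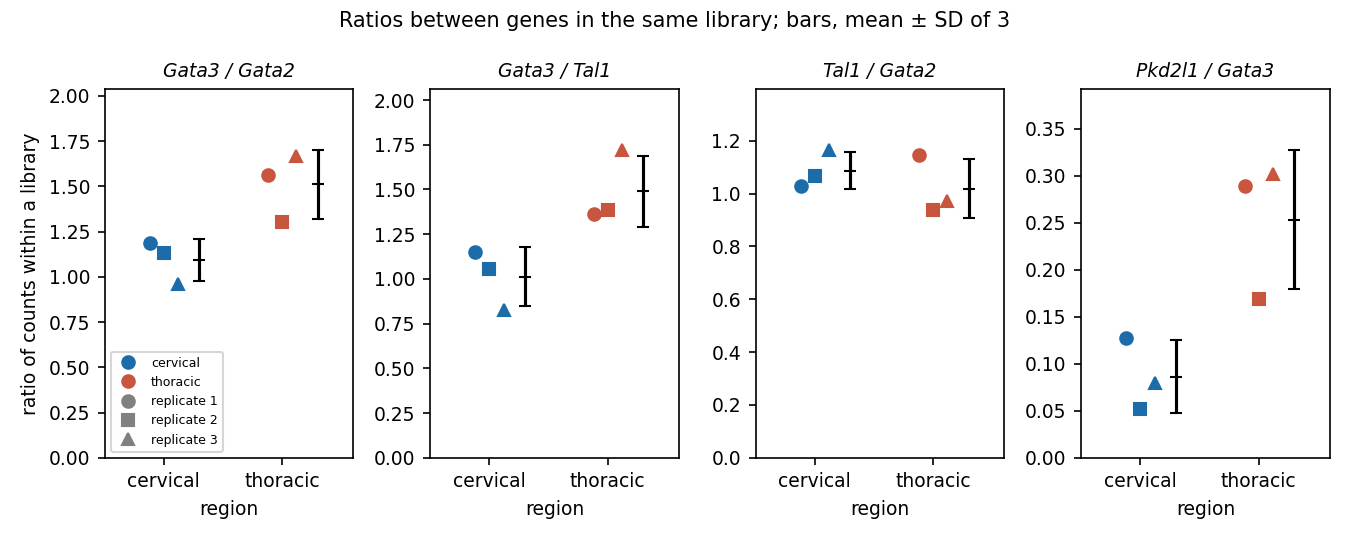
Ratio of the counts of pairs of genes within each library, by region; points are libraries and the black bars give the mean and SD of 3. Gata3 per Gata2, Gata3 per Tal1 and Pkd2l1 per Gata3 are higher in all thoracic than in all cervical libraries, and Tal1 per Gata2 overlaps at means of 1.09 and 1.02.

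The promoters of these regulators are shown because the 3 genes act in one lineage while Gata3 alone was called here. They come from RefSeq (build GRCm38.p6) and cover the 250 bases before the annotated start, written 5′ to 3′ on the strand of the gene. Capitals mark each GATA on either strand (GATA or TATC), and matches that overlap are counted separately. The windows are chr6:88193641-88193890 on the plus strand for the first of the Gata2 starts, chr2:9878601-9878850 on the minus strand for Gata3, and chr4:115056176-115056425 on the plus strand for the first of the Tal1 starts.
Gata2: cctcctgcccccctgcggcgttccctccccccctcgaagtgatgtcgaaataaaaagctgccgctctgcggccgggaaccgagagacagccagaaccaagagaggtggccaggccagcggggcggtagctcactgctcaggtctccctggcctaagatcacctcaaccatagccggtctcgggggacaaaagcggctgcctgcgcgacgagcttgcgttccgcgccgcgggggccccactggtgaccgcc
Gata3: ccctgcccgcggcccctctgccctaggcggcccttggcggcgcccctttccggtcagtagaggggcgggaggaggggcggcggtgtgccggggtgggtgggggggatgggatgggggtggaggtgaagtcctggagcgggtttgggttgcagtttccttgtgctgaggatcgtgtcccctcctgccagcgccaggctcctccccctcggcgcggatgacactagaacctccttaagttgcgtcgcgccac
Tal1: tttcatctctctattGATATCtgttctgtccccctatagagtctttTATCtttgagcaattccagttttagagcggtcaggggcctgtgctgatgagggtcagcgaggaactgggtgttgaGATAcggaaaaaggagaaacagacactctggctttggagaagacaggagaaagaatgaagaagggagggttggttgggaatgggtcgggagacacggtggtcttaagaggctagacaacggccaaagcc
The window of the first Tal1 start holds 4 matches, and those printed for Gata2 and Gata3 hold 0. The windows of the second Tal1 start and the second Gata2 start, not printed, also hold 0. One of the 4 is part of AGATAA (searched on both strands, so also as TTATCT), a longer form that 9.99% of all 32851 RefSeq promoter windows of this length contain, while GATA alone occurs in 53.6% of them. The first Tal1 window has 48.8% G and C bases and the second 62.8%, beside 67.2% for the printed Gata2 window and 70% for Gata3. The table holds a start for 7 of the 8 genes, and no other window of these genes contains AGATAA. A match describes the letters only, and no binding was measured here.

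Pkd2l1 showed the widest gap between regions of the 6 tested genes. This polycystin-like channel subunit is the defining marker of cerebrospinal fluid contacting neurons, and its gene lies on chromosome 19 from 44136076 to 44180881 (mm39, minus strand). It had 51, 19 and 29 reads in cervical replicates 1, 2 and 3, or 1.58, 0.557 and 0.907 CPM, and 272, 112 and 239 reads in the thoracic ones, or 5.08, 3.44 and 7.38 CPM. The highest cervical value was under the lowest thoracic value, and values varied widely within each region. The thoracic mean was 5.30 ± 1.98 CPM and the cervical mean 1.02 ± 0.520 CPM, a 5.22-fold difference (log2 fold change -2.38, SE 0.38, edgeR adjusted p = 0.0249). Leaving out cervical replicate 2 or 3 gave an edgeR adjusted p of 0.0793 or 0.128, and leaving out thoracic replicate 1 or 3 gave 0.0516 or 0.0923. It was called without cervical replicate 1 (0.00946) and without thoracic replicate 2 (0.0398). Counts of this size carry a counting error of 6.06 to 22.9% per library, smaller than the spread between libraries of 51.2% in cervical and 37.4% in thoracic samples.

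Pkd2l1 also differed relative to the transcription factor it shares its cells with. Its counts per Gata3 count were 0.128, 0.0519 and 0.0792 in cervical and 0.289, 0.169 and 0.302 in thoracic replicates, with no overlap between regions. Relative to Shh and Sim1 the regions did overlap. Pkd2l1 per count of Shh, the ligand secreted by the floor plate, was 0.197, 0.0287 and 0.0378 in cervical and 0.166, 0.114 and 0.177 in thoracic replicates. Per count of Sim1, a factor of V3 interneurons, Pkd2l1 was at 0.181 ± 0.0558 in cervical and 0.203 ± 0.0829 in thoracic libraries (SD, n = 3).

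The size of the difference at each replicate number followed separate orders for separate genes. Gata3 had log2 ratios, cervical to thoracic, of -0.50, -0.92 and -1.09 at numbers 1, 2 and 3, and Pkd2l1 had -1.68, -2.62 and -3.02. For both, number 3 showed the widest gap and number 1 the narrowest. Sox14 had -0.50, -1.26 and -0.20, Gata2 -0.11, -0.72 and -0.30, and Tal1 -0.26, -0.53 and -0.04. For these, as for Sox21, the widest gap was at number 2. Foxn4 (-2.04, -2.02 and -0.83) and Vsx1 (-1.73, -2.06 and -1.30) had their narrowest gap at number 3.

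**Figure D3:**
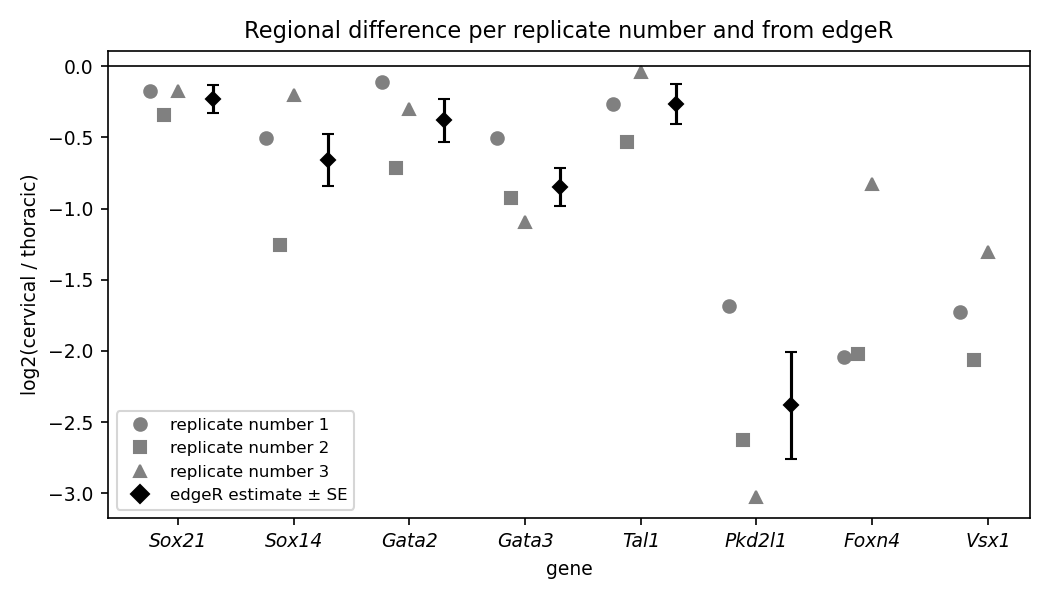
Log2 ratio of cervical to thoracic CPM at each replicate number (grey, shape for the number) and the edgeR log2 fold change with its SE (black diamonds, 6 tested genes). All grey points lie below 0, from -0.04 for Tal1 to -3.02 for Pkd2l1.

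Further genes of V2 development were looked at as a list of 16 regulators of the lineage, all of them tested. In edgeR's test 1 was called in each direction. That test called 0.350% of all tested genes higher in thoracic libraries and 0.542% in either direction. The median log2 fold change of the list was -0.09, beside 0.0083 over all tested genes. Nkx6-1, a homeodomain factor of ventral progenitors including p2, rose in thoracic libraries, with 32.8 ± 2.79 CPM in cervical libraries and 47.6 ± 2.34 CPM there (log2 fold change -0.54, edgeR adjusted p = 0.0261). Bhlhe22, a helix-loop-helix factor of V2b and other interneurons, rose in cervical libraries, with 74.3 ± 2.84 CPM in thoracic libraries and 96.2 ± 5.73 CPM there (log2 fold change 0.37, edgeR adjusted p = 0.0400). Each kept its call without cervical replicate 1 and lost it when any of the other 5 libraries was left out (0.0515 to 0.130 for Nkx6-1 and 0.0840 to 0.206 for Bhlhe22). The LIM cofactor Ldb1, the most abundant by counts, had 317.5 ± 17.6 CPM in the cervical group and 301.7 ± 15.3 CPM in the thoracic group. Dll4, a Notch ligand of this step, had a log2 fold change of -0.30 (SE 0.31). Notch1, a receptor for such ligands, had one of -0.24 (SE 0.11). It was called higher in thoracic libraries with the replicate number as a block and not without it (edgeR adjusted p = 0.0484 and 0.606). The blocked test called 2 of the 16 in that direction, against 1.39% of all tested genes. Toward cervical it called 1 of the 16, and 126 of all 21972 tested genes. Lhx3, a LIM factor that V2a cells share with motor neurons, had a log2 fold change of 0.0041 (SE 0.28). Shox2, which marks V2a and other excitatory cells, had one of -0.38 (SE 0.21, edgeR adjusted p = 0.703).

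Genes of inhibitory transmission and of fluid-contacting cells lay on both sides of 0. Of 8 tested genes of this list, edgeR called none, though 4 had an unadjusted p under 0.05, while DESeq2 called 1 and limma-voom none. The share of all tested genes at such an unadjusted p is not given, here or for the later lists. Over all 21972 tested genes DESeq2 called 408 and limma-voom 107, which also stand beside the later lists. On the log2 scale 3 lay below 0 and 5 above it, and the median log2 fold change was 0.12. Their summed level ranged over 382.5 to 424.1 CPM in cervical libraries and over 320.1 to 342.6 CPM in thoracic ones. The peptide gene Sst had 57.4 ± 10.7 CPM in cervical libraries and 38.0 ± 3.27 CPM in thoracic ones, with a log2 fold change of 0.60 (SE 0.13, edgeR adjusted p = 0.0821). Gad1 stood at 166.4 ± 9.68 against 142.5 ± 16.0 CPM, and its partner enzyme Gad2 at 117.6 ± 8.95 against 94.9 ± 11.1 CPM. With the replicate number as a block, 2 of the list, Sst and Gad2, were called higher in cervical libraries (edgeR adjusted p = 0.0133 and 0.0280). The blocked test called 126 of all 21972 tested genes in that direction. Many other interneurons express Sst, Gad1 and Gad2. Espn and Myo3b, genes of actin-based protrusions, had log2 fold changes of -0.69 (SE 0.41) and -0.62 (SE 0.52), and the ATP-gated channel gene P2rx2 one of -0.30 (SE 0.22), at mean levels of at most 2.99 CPM. Espn and P2rx2 were higher in all 3 thoracic than in all 3 cervical libraries, an order found in 7.50% of all tested genes. Sst and Gad2 were higher in all cervical libraries, and the share of all tested genes in that order is not given here. Pkd1l2, a relative of Pkd2l1, was removed by the filter, and Tal2, a relative of Tal1, had means of 0.495 and 0.493 CPM.

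**Figure D4:**
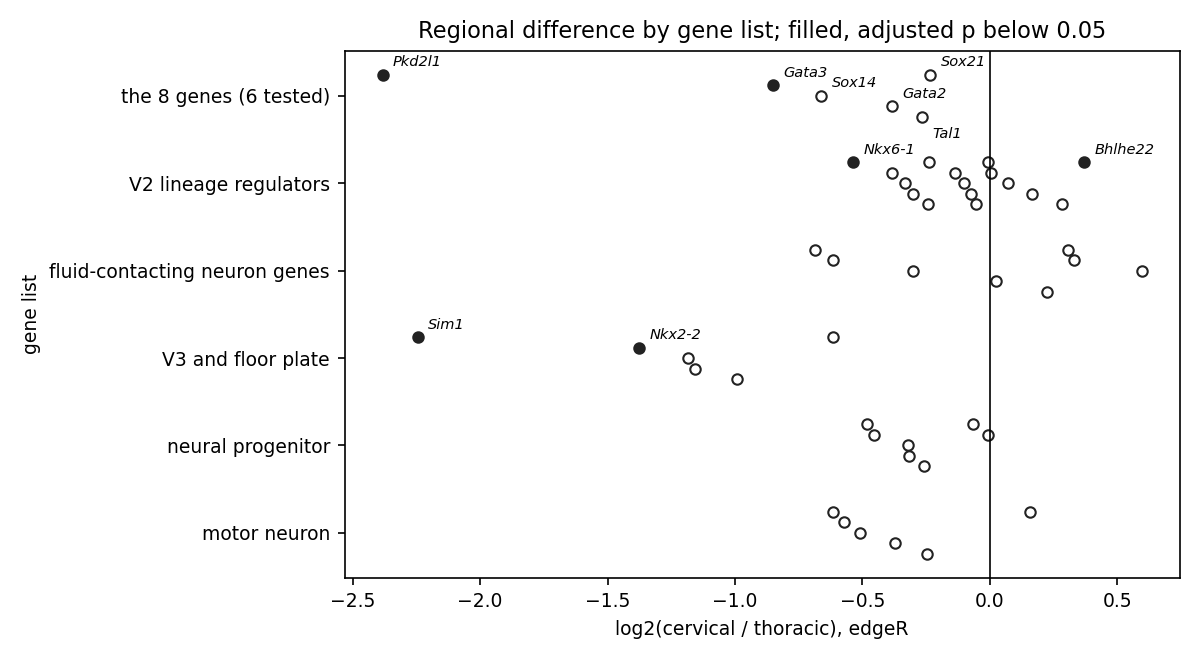
EdgeR log2 fold change, cervical minus thoracic, of each tested gene by list; filled points passed an adjusted p below 0.05 and are named, as are the 6 tested genes of the first row. The V3 and floor plate genes lie between -2.25 and -0.62, and the V2 lineage regulators between -0.54 and 0.37.

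Markers of neighbouring ventral cells moved with Pkd2l1 and Gata3. All 6 V3 and floor plate genes lay below 0, with a median log2 fold change of -1.17. Of these, 2 were called higher in thoracic libraries, against 0.350% of all tested genes. Sim1 differed by -2.25 on the log2 scale (edgeR adjusted p = 0.0192), and was not called without cervical replicates 2 or 3 or thoracic replicates 2 or 3 (0.0625 to 0.0876). Nkx2-2, the factor of the p3 domain, differed by -1.37 (edgeR adjusted p = 0.0104, and 0.0576 without cervical replicate 3). With the replicate number as a block, all 6 were called higher in thoracic libraries, where the blocked test called 1.39% of all tested genes in that direction. The list summed to 206.5, 437.0 and 409.2 CPM in cervical replicates 1, 2 and 3 and to 467.2, 578.6 and 693.8 CPM in the thoracic ones, most of it from Spon1, a floor plate adhesion protein gene. Cervical replicate 1 was the lowest for this sum and the highest cervical library for Pkd2l1. The part of these cells in the differences of Pkd2l1 and Gata3 was not tested.

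Neural progenitor genes also had higher means in thoracic libraries. All 7 lay below 0 with a median log2 fold change of -0.31, and edgeR called none. Among them were Vim (log2 fold change -0.48, edgeR adjusted p = 0.0859) and Nes (log2 fold change -0.45, edgeR adjusted p = 0.126). In edgeR 4 of the 7 had an unadjusted p under 0.05. DESeq2 called 3 of the 7 and limma-voom none, against 408 and 107 of all 21972 tested genes. With the block 3 were called higher in thoracic libraries, against 1.39% of all tested genes. The sum of the 7 progenitor genes was 805.2 to 1048 CPM in cervical and 1002 to 1316 CPM in thoracic libraries, with overlap. Its part in the levels of Foxn4, Vsx1 and Sox21 was not tested. Of 6 motor neuron genes edgeR and limma-voom called none and DESeq2 called 1, with 1 at an unadjusted p under 0.05 in edgeR. Of these 6, 5 lay below 0, and their sum overlapped widely at 240.5 to 462.2 and 303.4 to 460.3 CPM. Gata3 per count of Mnx1 was 0.0643 ± 0.0139 in cervical and 0.129 ± 0.0343 in thoracic libraries with no overlap, while per count of Isl1, another motor neuron factor, it was 0.239 ± 0.0386 and 0.279 ± 0.0633 with overlap. With the block 2 of the motor neuron genes, Isl1 and Slc18a3, were called higher in thoracic libraries (edgeR adjusted p = 0.00105 and 0.0303), against 1.39% of all tested genes.

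Blood, vessel and sympathetic cells also express Gata2, Gata3 or Tal1. The 11 erythroid genes summed to 10.6 to 24.3 CPM in cervical and 7.85 to 11.7 CPM in thoracic libraries, with Gata1 at means of 0.0794 and 0.0909 CPM. Of these, 4 were tested, edgeR and limma-voom called none and DESeq2 called 1, with 2 at an unadjusted p under 0.05 in edgeR. All 4 had log2 fold changes above 0, among them Alas2, an enzyme of heme synthesis and the most abundant by counts (0.12, SE 0.20), and the embryonic globin genes Hbb-y (1.45, SE 0.50) and Hba-x (1.95, SE 0.56). With the block, Hba-x was the 1 gene of the list called higher in cervical libraries (edgeR adjusted p = 0.0133). The blocked test called 126 of all 21972 tested genes that way. The 7 endothelial genes summed to 5.77 to 14.2 CPM in cervical and 9.63 to 15.1 CPM in thoracic libraries, and edgeR, DESeq2 and limma-voom called none of them, with 0 at an unadjusted p under 0.05 in edgeR. All 7 had log2 fold changes below 0, with a median of -0.37, among them the receptor gene Kdr, the most abundant by counts (-0.19, SE 0.29), Pecam1 (-0.48, SE 0.32) and Cldn5 (-0.46, SE 0.40). Of 5 sympathetic neuron genes 3 were tested and none was called by edgeR, DESeq2 or limma-voom, with 2 at an unadjusted p under 0.05 in edgeR. Th, the enzyme that starts catecholamine synthesis, had 2.19 ± 0.388 CPM in the cervical group and 1.14 ± 0.541 CPM in the thoracic group (log2 fold change 0.91, SE 0.35). Phox2a, a factor of autonomic neurons, had 0.701 ± 0.421 and 2.02 ± 0.896 CPM, with overlap between the regions. Its difference was -1.54 on the log2 scale (SE 0.50, edgeR adjusted p = 0.340). The list summed to 2.93 to 4.71 CPM in cervical and 1.82 to 6.18 CPM in thoracic libraries, and Hand2, another of its factors, had 0 counts in all 6. The part of these 3 cell types in the levels of Gata2, Gata3 and Tal1 was not tested.

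Genes with the most similar pattern over the 6 libraries were found by the root mean square difference in log2 CPM, each gene centred on its own mean, among 17085 other genes of at least 1 CPM. For Pkd2l1 they were Gm49677, Sim1 and the peptide precursor Uts2b, at distances of 0.416, 0.446 and 0.454 on the log2 scale. Gm49677 (log2 fold change -2.36, edgeR adjusted p = 0.0457) kept its call on leaving out 1 of the 6 libraries. For Gata3 they were Doc2b, Vwc2 and Met, at 0.0625, 0.0734 and 0.103. Met, the receptor of hepatocyte growth factor, was called higher in thoracic libraries (58.7 against 32.7 mean CPM, edgeR adjusted p = 0.0249, but 0.109 without cervical replicate 2 and 0.109 without cervical replicate 3). For Gata2 they were Klhl1, Tatdn3 and Papolb, and for Tal1 Tatdn3, a gene listed without a symbol and Gm13619. For Sox14 they were Arap3, Nfatc4 and Chmp2b, and for Sox21 Ndn, Adamts10 and Col23a1. Tal1 was the gene at rank 19 from Gata2, and Gata2 the one at rank 87 from Tal1, at a distance of 0.113. Gata3 was the nearest of these genes to Pkd2l1, at rank 68 and a distance of 0.884, while Gata3 itself had Gata2 at rank 303. Such ranks depend on how many genes vary by a like amount, and the genes share the same 6 libraries.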

How the data were processed

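The authors deposited read counts per gene, made with FastQC 0.11.9, STAR 2.7.5b and featureCounts 2.0.1 on mm39, per the submitters' processing notes. The authors deposited each gene's length in exonic bases beside the counts, and levels per kilobase use it. Per the labels' protocols, 10 to 20 ng of RNA went into each rRNA-depleted stranded library, followed by 15 cycles of PCR. Neither the annotation release nor whether counting used strand is given in the sources used here, so reads of overlapping genes on opposite strands cannot be told apart.

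From the counts, edgeR 4.0.16 (R 4.3.3) was run with its default filter (minimum count of 10), TMM factors, the quasi-likelihood test on region without covariates, and Benjamini-Hochberg adjustment over 21972 tested genes. The filter removed 34833 genes with 0.117% of counts. The SE is the absolute log2 fold change over the root of the F statistic. Alternatives were DESeq2 1.42.0, limma-voom 3.58.1, other scaling and filters, a replicate block, and leaving out each library. After centring each region, libraries sharing a replicate number in their titles correlated at 0.163, 0.160 and 0.195, and others at no more than 0.0083. Centring on 3 libraries makes the deviations of each gene sum to 0, so positive matched values push the others down. The lower values of the others are therefore not separate evidence of pairing. The numbers were taken to pair the samples in the replicate block, an assumption that was not tested. The main test and the fits without a library did not use this pairing.

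The genes and lists were chosen with earlier results of these data known. From each list the most abundant gene, the 2 with the smallest p and every called gene were named, and the 3 genes nearest in pattern to each gene. Dll4, Notch1, Lhx3, Shox2, Pkd1l2, Tal2, Espn, Myo3b, P2rx2, Chat, Shh, Gata1 and Hand2 were named for their roles after their values were seen. Promoter sequences are from RefSeq, and coordinates of genes are from the deposited table.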

Additional observations from a re-analysis of the deposited data

How the results depend on the processing

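All 6 tested genes kept a negative log2 fold change, cervical minus thoracic, in the 13 alternatives run. Gata3 (-0.96 to -0.72) and Pkd2l1 (-2.85 to -2.08) were each called in 9 of the 13, including 2 of the 6 fits without a library, and Sox14 in 2. The number of these genes called was 0 to 2 in the fits without a library. It was 0 without cervical replicate 2, cervical replicate 3 or thoracic replicate 3. The replicate block, for pairing by number, changed no call of these 6 genes. Over all genes, where 119 were called, 42 toward cervical and 77 toward thoracic, the counts were 432 (126 and 306) with the replicate block, 408 (126 and 282) with DESeq2 and 747 (232 and 515) without the low-count filter, and the cause was not tested. They ran from 9 to 159 (1 to 48 and 8 to 111) when single libraries were left out, so with fewer samples. Depth limits Vsx1 and Foxn4, with at most 11 and 41 reads in a library.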
